A study of Saccharomyces cerevisiae with 8 samples.

Results

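The kinetochore is the protein assembly that joins a centromere to spindle microtubules, and the spindle checkpoint delays anaphase while any kinetochore is unattached. The genes described here are 34 of the 6596 gene models in a table of read counts, chosen by name as subunits of these assemblies, and all 34 were matched to a row. They are ordered by role into 8 inner kinetochore genes, 9 outer kinetochore genes, 7 genes of the DASH complex, 4 genes of the chromosomal passenger complex and shugoshin, and 6 checkpoint genes. All 34 passed the filter on low counts, with 179 to 10353 reads per gene and library.

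Poly(A) RNA of budding yeast was measured in 8 libraries, 4 from mcd1-1 cells and 4 from wild-type (WT) cells, lettered A to D in each group. Both are derivatives of W303-1a, a common haploid laboratory yeast whose mating type is a. Both were in logarithmic growth in YPD, a rich glucose medium, at 31 °C. The labels give all 8 libraries the same starting density and the same small number of generations of growth. Longer growth at 31 °C was not measured. MCD1 (also SCC1) encodes the kleisin subunit that closes the cohesin ring around sister chromatids, and mcd1-1 is a temperature-sensitive allele of it. No label says that the libraries of a group came from separate cultures or isolates. The p-values thus speak of the spread among these libraries, which may be technical. The comparison asks how the mRNA of each gene differs between mcd1-1 and WT cells grown alike.

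In budding yeast the inner kinetochore assembles on a nucleosome that holds the centromeric histone Cse4, the outer kinetochore binds the microtubule through the Ndc80 complex, and DASH forms rings around the microtubule that strengthen this grip. Cohesin at and around the centromere resists the pull of the spindle and so generates the tension that tells correct from incorrect attachments. The Aurora B kinase Ipl1 releases attachments that lack tension, and the kinases Mps1 and Bub1 recruit the Mad proteins that hold back Cdc20, the activator of anaphase. Once that block is lifted, separase cuts Mcd1 and the sister chromatids part.

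The totals were 24091037 to 58506447 counts in mcd1-1 and 22331070 to 44217331 counts in WT libraries. Levels are given as CPM, counts scaled to a common library size, after TMM normalization, and the sum of the 34 genes was 1564 to 1944 CPM in mcd1-1, against 1270 to 1385 CPM in WT libraries. MCD1 mRNA itself was at 312 ± 44.6 CPM in mcd1-1 and 80.3 ± 5.20 CPM in WT (mean ± SD, n = 4 each), which checks no label because reads of the mutant allele count too. The 6 genes specific to mating type a summed to 683 to 970 CPM in mcd1-1 and 980 to 1167 CPM in WT libraries. The 4 genes specific to mating type alpha summed to 108 to 146 CPM in mcd1-1 and 35.7 to 45.9 CPM in WT libraries, and none of these genes was at 0. Of the first list 1 gene rose and 4 had negative fold changes. A fit blocked on the library letter called 2 of the 6 higher and 3 lower. In A and B alone 2 were higher and 4 lower, and in C and D alone 2 were higher and 2 lower. Of the second list 3 rose. Over all genes 20.7% were called higher and 19.7% lower. In the blocked fit 29.4% of all genes were higher and 30.2% lower. In A and B alone these shares were 34.8% and 32.9%, and in C and D alone 38.8% and 37.1%. Libraries A and B of both genotypes stood apart from C and D for a reason the labels do not give. Of the 34 genes, 18 (52.9%) differed between these pairs of libraries at an adjusted p under 0.05, where 54.7% of all genes tested did. Of the 18, 6 were higher in C and D and 12 lower, and over all genes 26.3% were higher and 28.4% lower. Results are therefore also given within each pair.

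Of the 34 mRNAs, 10 rose in mcd1-1, 2 fell and 22 were not called (edgeR's quasi-likelihood test, Benjamini-Hochberg adjustment over 6558 genes, threshold 0.05). This is 29.4% higher and 5.88% lower, where 20.7% of all genes tested were called higher and 19.7% lower (40.4% in all). The median log2 fold change of mcd1-1 over WT was 0.23 for the 34 genes and -0.01 for all genes. The subgroup medians, given as a description, were 0.83 for the passenger and shugoshin genes, 0.48 for the outer kinetochore, 0.21 for the checkpoint, 0.14 for the inner kinetochore and -0.34 for DASH. These medians moved with single libraries. That of the outer kinetochore was 0.22 without mcd1-1 A, 0.28 without WT C and 0.26 without WT D, and that of the checkpoint 0.34 without mcd1-1 A. That of the inner kinetochore was 0.09 without WT C, 0.25 without mcd1-1 C or WT A and 0.27 without mcd1-1 D, and that of DASH -0.23 without WT A. The higher calls comprised 3 inner kinetochore genes, 4 outer kinetochore genes, 2 passenger genes and 1 checkpoint gene, and both lower calls were DASH genes. Scaling by library size alone moved the median of all genes to 0.33. By edgeR 17 members were then higher and none was lower (2 at an unadjusted p under 0.05). Of the 6558 genes, 2460 were higher and 550 lower. No other tool was run at this scaling. With composition scaling DESeq2 and limma-voom each called 2 members lower, where they called 1559 and 1296 of all genes lower. Under library size alone the median of DASH was -0.0018, but set against the median of all genes it was -0.33 under either scaling, and that of the outer kinetochore was 0.49 and 0.50. In a fit blocked on the library letter 15 rose and 4 fell, that is 44.1% and 11.8%, where 29.4% and 30.2% of all genes did. The genotypes did not overlap for 14 members, 11 of them higher in all mcd1-1 libraries and 3 lower, that is 32.4% and 8.82%, where the same held for 22.1% and 21.0% of all genes.

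Genes that mark stages of the cell cycle moved too. Of 8 histone genes of S phase 7 fell, with sums of 1517 to 2306 CPM in mcd1-1 and 3133 to 5267 CPM in WT libraries. Among them HTA1 and HTA2, HHT1 and HHT2, and HHF1 and HHF2 are near-identical copies. How multiply matching reads were treated is not stated, so the counts of such copies may not be separate. Of 5 genes of mitotic exit and early G1 4 fell, with sums of 1046 to 1409 CPM in mcd1-1 and 2513 to 2831 CPM in WT libraries. Of 7 G2/M genes 2 rose and 1 fell, against 20.7% and 19.7% of all genes. Their sums in libraries A to D were 546, 545, 658 and 659 CPM in mcd1-1 and 289, 296, 602 and 638 CPM in WT, so that the gap was wide in A and B and narrow in C and D. In A and B 6 of the 7 rose and 1 fell, where 34.8% of all genes were higher and 32.9% lower. In C and D 3 rose and 1 fell, where 38.8% of all genes were higher and 37.1% lower. The change differed between pairs for 6 of the 7, where 36.7% of all genes did. Of 6 G1/S genes 1 rose and 1 fell. Their sums in libraries A to D were 374, 344, 533 and 551 CPM in mcd1-1 and 385, 405, 718 and 767 CPM in WT, lower in mcd1-1 for each letter. The fit blocked on the letter called 1 of the 6, CLB6, higher and 3 lower. It called 29.4% of all genes higher and 30.2% lower. In C and D alone CLB6 was higher and 4 of the 6 were lower, where 38.8% and 37.1% of all genes were. The part of the cell-cycle stages in the changes of the kinetochore and checkpoint genes was not tested.

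**Figure D1:**
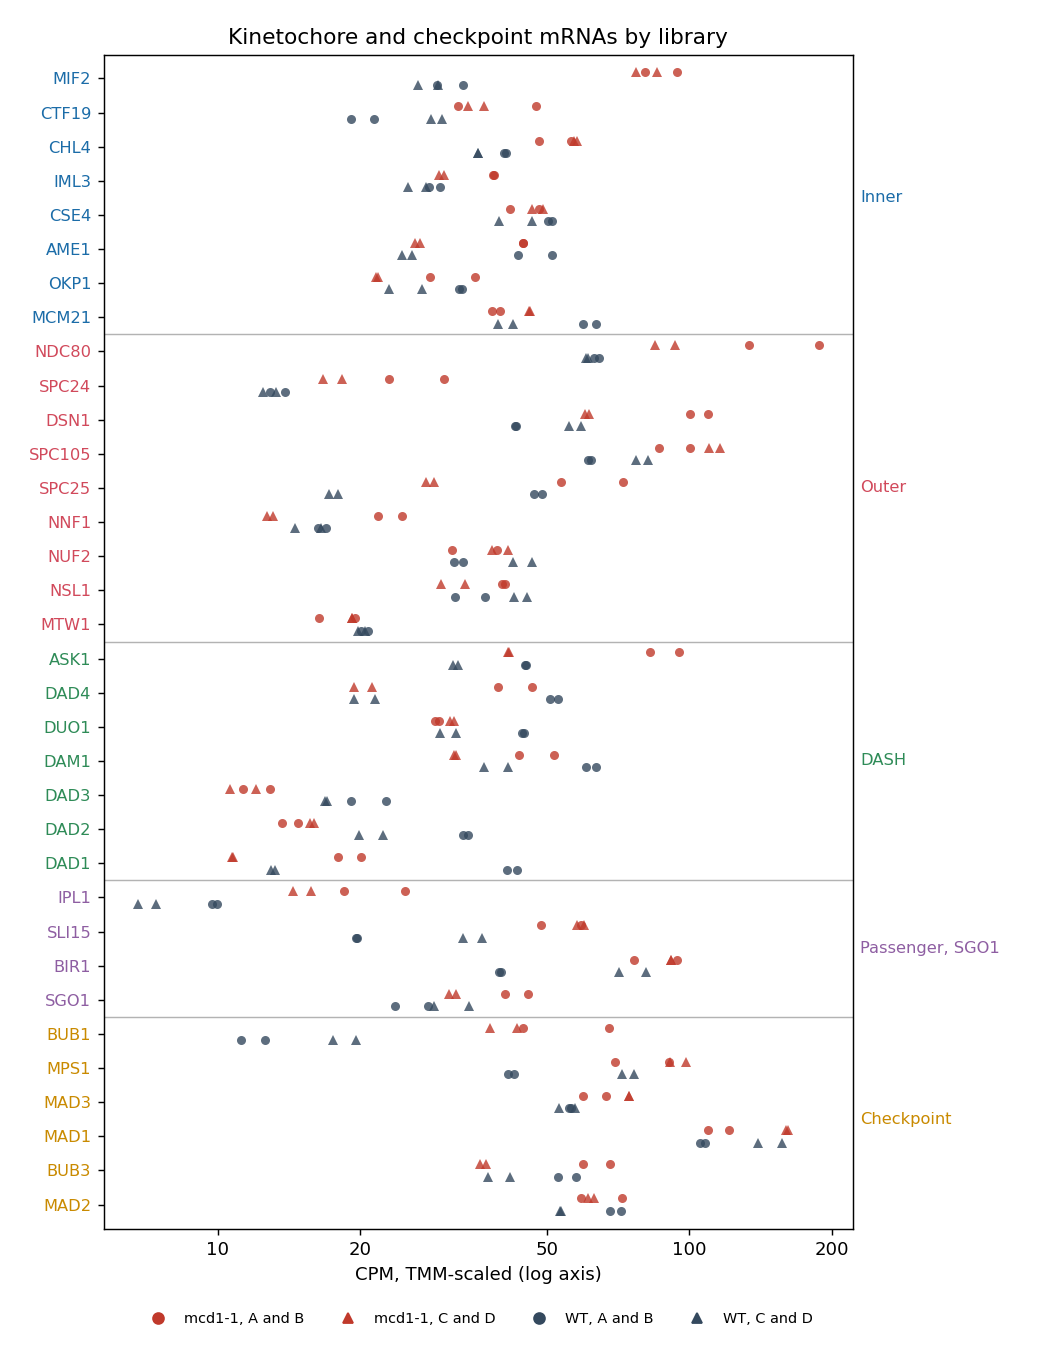
CPM of the 34 mRNAs (rows, log axis) in each library, with mcd1-1 in red above WT in dark blue and circles for libraries A and B, triangles for C and D. MIF2, BUB1, IPL1 and SLI15 show every mcd1-1 library to the right of every WT library, while for DAD4 and AME1 the symbols separate by pair of libraries instead. For DAM1 they separate by pair, and within each pair mcd1-1 lies to the left of WT.

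**Figure D2:**
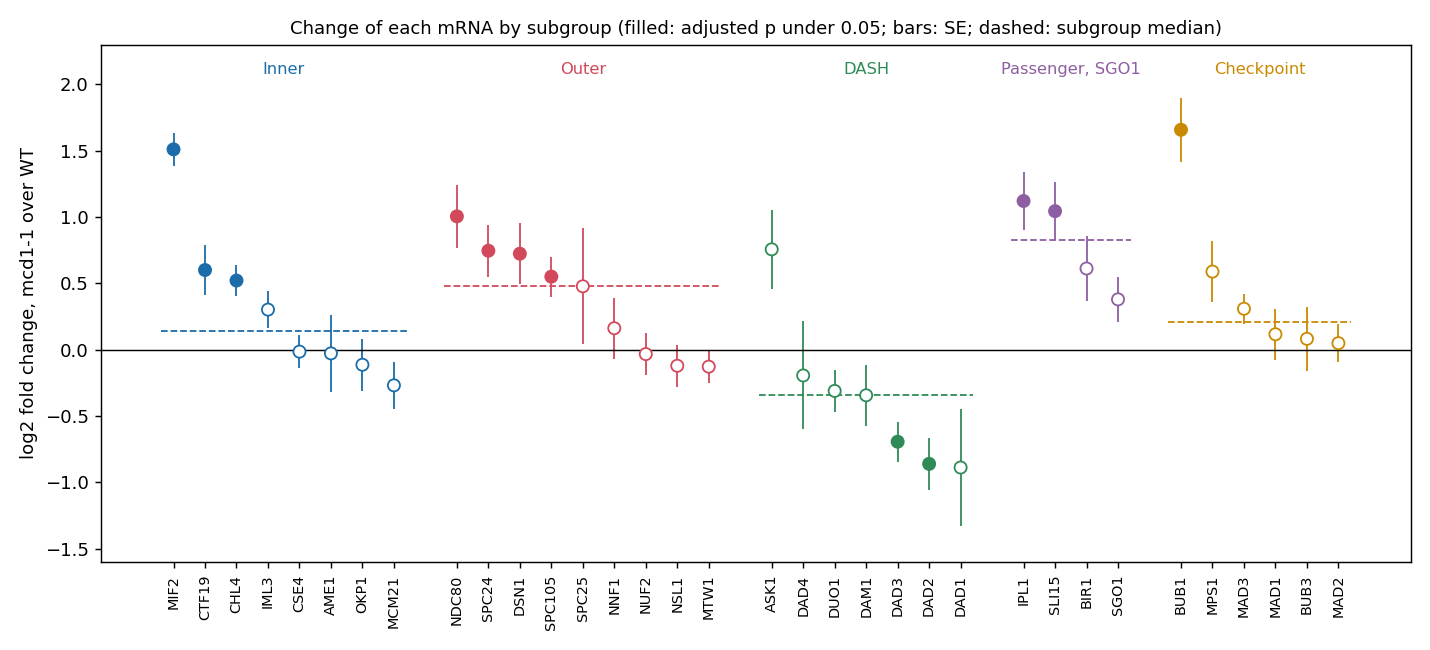
Log2 fold change of mcd1-1 over WT for each mRNA, sorted within its subgroup, with SE bars, filled points for an adjusted p under 0.05 in edgeR and a dashed line at the subgroup median. The filled points are 10 above 0 and 2 below, DAD2 and DAD3.

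Short promoter stretches are shown because many of these genes are transcribed at set times of the cell cycle, and the motifs of its transcription factors are short enough to read. The 300 bases before each start codon were searched on both strands, in the RefSeq genome of build R64, for ACGCGT (the MCB element of the G1/S factor MBF), CACGAAA and CGCGAAA (forms of the SCB element of SBF) and GTAAACA (a forkhead site). ACGCGT stood before 4 members (11.8%), where 3.47% of 6020 promoters of the same length held it. Of these 4 genes 3 rose, where 20.7% of all genes were called higher, but so few genes allow no reading of the share. The match is in capitals in each stretch, written 5′ to 3′ on the strand of the gene.
MIF2 at chrXI:273288-273315, plus strand: aaaataatataACGCGTtagaaatggtg
CTF19 at chrXVI:517555-517582, plus strand: aaaaatcagaaACGCGTaatttagactt
IPL1 at chrXVI:157745-157772, minus strand: agtttaacttcACGCGTttttcctgtaa
MTW1 at chrI:79601-79628, plus strand: atttttatagtACGCGTaaacaaaaaag
The last of these, before MTW1, runs into a forkhead match that shares 2 of its bases, and MTW1 was not called. CGCGAAA, searched in the same way, stood before 7 members (20.6%) and before 3.94% of all promoters.
SPC24 at chrXIII:502026-502054, minus strand: gtagaaggaccCGCGAAAgcagaagaggt
SPC105 at chrVII:334728-334756, plus strand: aaaaaacaataCGCGAAAgagaaggcgcc
SLI15 at chrII:553310-553338, minus strand: catattttaaaTTTCGCGaattaactaaa
DAD2 at chrXI:596933-596961, minus strand: atttagtgtaaCGCGAAAataaaaatatg
DAD1 at chrIV:478849-478877, minus strand: aaagtcaaggcCGCGAAAataacaaaggg
CSE4 at chrXI:346910-346938, minus strand: tcccactgtgtCGCGAAAtcgcggaagta
BUB3 at chrXV:379717-379745, plus strand: aaatatcacatCGCGAAAgaaaagctatc
Of these 7 genes SPC24, SPC105 and SLI15 rose, DAD2 fell and 3 were not called, and the match before SLI15 lies on the other strand. GTAAACA stood before 9 members (26.5%) and 6.98% of all promoters, and 2 of the 9 genes, SPC24 and IPL1, rose, a share near that of all genes. CACGAAA stood before BUB3 alone among the members (2.94%) and before 4.49% of all promoters. A match describes these letters and does not show that a factor binds there.

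Of the inner kinetochore genes, MIF2, CTF19 and CHL4 rose and 5 were not called. MIF2 (YKL089W, chromosome XI, 273394 to 275043) encodes the CENP-C protein that ties the Cse4 nucleosome to the outer kinetochore. Coordinates are those of the deposited table, build R64. MIF2 had 80.6, 93.9, 85.5 and 76.9 CPM in mcd1-1 libraries A to D, against 33.1, 29.2, 26.6 and 29.4 CPM in WT libraries A to D. The groups were far apart, and MIF2 varied little within either (2.85-fold, log2 fold change 1.51 ± 0.12 (SE), adjusted p = 5.8e-05). A value with ± and no unit is, from here on, the log2 fold change and its SE in the same edgeR fit. The rise was about equal in the pairs of libraries, at 1.49 in A and B and 1.57 in C and D. CSE4 (YKL049C, chromosome XI, 346075 to 346764), the histone H3 variant to which Mif2 binds, had 48.0, 41.7, 49.0 and 46.3 CPM in mcd1-1 and 50.1, 51.0, 39.4 and 46.3 CPM in WT libraries. Its groups overlapped and it was not called (-0.01 ± 0.12, adjusted p = 0.94). Per length, which allows genes to be compared, the level of MIF2 over that of CSE4 was 0.702, 0.941, 0.730 and 0.695 in the mcd1-1 libraries and 0.276, 0.240, 0.282 and 0.265 in the WT libraries, a ratio within each library that no scaling alters.

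CTF19, MCM21, OKP1 and AME1 encode the COMA complex, which bridges centromeric chromatin and the outer kinetochore, and of the 4 only CTF19 was called. CTF19 (YPL018W, chromosome XVI, 517651 to 518760) had 32.4, 47.4, 33.9 and 36.6 CPM in mcd1-1, against 19.2, 21.4, 28.4 and 30.0 CPM in WT libraries, and rose (0.60 ± 0.19, adjusted p = 0.031). The groups did not overlap, but the change was 0.97 in A and B and 0.31 in C and D, and the call was lost without mcd1-1 B (adjusted p = 0.078), mcd1-1 D (0.051), WT A (0.073) or WT B (0.081). Its gene model overlaps YPL017C, and since no source used here says whether counting used the strand, reads of the 2 models cannot be told apart. MCM21 had 38.1, 39.6, 45.8 and 45.9 CPM in mcd1-1 and 63.4, 59.4, 39.3 and 42.2 CPM in WT libraries (-0.27 ± 0.18, adjusted p = 0.25). Within pairs it went opposite ways, with a log2 fold change of -0.66 in A and B (adjusted p = 0.0010) and 0.21 in C and D (adjusted p = 0.015). OKP1 (-0.11 ± 0.20) and AME1 (-0.03 ± 0.29) were not called. AME1 in particular differed by pair of libraries rather than by genotype, with 44.4, 44.4, 26.9 and 26.2 CPM in mcd1-1 and 51.0, 43.3, 24.6 and 25.8 CPM in WT libraries.

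CHL4 and IML3 encode the CENP-N and CENP-L proteins, which together with COMA promote the loading of cohesin around centromeres. CHL4 (YDR254W, chromosome IV, 965113 to 966489) had 48.0, 56.2, 56.9 and 57.8 CPM in mcd1-1, against 40.8, 40.5, 35.6 and 35.7 CPM in WT libraries. It rose modestly and without overlap (0.52 ± 0.12, adjusted p = 0.0070), by 0.36 in A and B and 0.72 in C and D. IML3 had 38.3, 38.6, 30.1 and 29.5 CPM in mcd1-1 and 28.0, 29.6, 25.3 and 27.7 CPM in WT libraries, and the highest WT library lay just above the lowest mcd1-1 library (0.30 ± 0.14, adjusted p = 0.11). IML3 was called higher with the pair of libraries as a block (adjusted p = 0.017) and in each pair alone, by 0.41 in A and B (adjusted p = 0.022) and 0.20 in C and D (0.034), but not in the fit blocked on the letter (0.054).

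Of the outer kinetochore genes, NDC80, SPC24, DSN1 and SPC105 rose and 5 were not called, so that subunits of the same complex moved unequally. NDC80 (YIL144W, chromosome IX, 78074 to 80149) encodes the subunit that contacts the microtubule, together with Nuf2. It had 133, 188, 93.0 and 84.4 CPM in mcd1-1, against 64.3, 62.6, 60.5 and 60.9 CPM in WT libraries (2.01-fold, 1.01 ± 0.24, adjusted p = 0.0093). WT libraries lay within a few CPM of each other while mcd1-1 libraries spread widely, with A and B above C and D, and the change was 1.34 in A and B and 0.58 in C and D. In meiosis NDC80 is also transcribed as a longer isoform that lowers Ndc80 protein, and counts per gene do not tell the isoforms apart. NUF2 (YOL069W, chromosome XV, 198942 to 200297) had 31.5, 39.1, 38.1 and 41.3 CPM in mcd1-1 and 33.1, 31.6, 42.3 and 46.3 CPM in WT libraries and was not called (-0.03 ± 0.16, adjusted p = 0.89). The per-length ratio of NDC80 to NUF2 was 2.77, 3.14, 1.59 and 1.33 in the mcd1-1 libraries and 1.27, 1.29, 0.933 and 0.859 in the WT libraries, so that each mcd1-1 library lay above each WT library.

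SPC24 and SPC25 encode the end of the Ndc80 complex that faces away from the microtubule, toward the inner kinetochore. SPC24 (YMR117C, chromosome XIII, 501250 to 501891) had 23.1, 30.1, 18.3 and 16.7 CPM in mcd1-1, against 12.9, 13.9, 13.3 and 12.5 CPM in WT libraries, and rose in both pairs (0.75 ± 0.19, adjusted p = 0.014, with 0.99 in A and B and 0.47 in C and D). SPC25 had 72.3, 53.3, 27.6 and 28.7 CPM in mcd1-1 and 46.7, 48.7, 18.0 and 17.2 CPM in WT libraries. Here A and B were high and C and D low in both genotypes, and within each pair mcd1-1 lay above WT (0.48 ± 0.44, adjusted p = 0.41). In the fit blocked on the letter SPC25 was called higher (adjusted p = 0.011).

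SPC105, the KNL1 protein on which Bub1 and Bub3 dock once Mps1 has phosphorylated it, had 86.3, 100.5, 116 and 109.7 CPM in mcd1-1, against 61.0, 61.7, 77.0 and 81.6 CPM in WT libraries. The gene (YGL093W, chromosome VII, 334886 to 337639) rose without overlap and by a like amount in the pairs (0.55 ± 0.15, adjusted p = 0.017, with 0.61 in A and B and 0.54 in C and D), although without WT B it just missed the threshold (adjusted p = 0.052).

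MTW1, NSL1, NNF1 and DSN1 encode the MIND complex, the platform that links Mif2 and COMA to Ndc80 and Spc105. DSN1 (YIR010W, chromosome IX, 375431 to 377161), whose product Ipl1 phosphorylates, had 100.02, 109.6, 61.2 and 60.2 CPM in mcd1-1, against 42.8, 42.9, 55.6 and 58.9 CPM in WT libraries. It rose (0.72 ± 0.23, adjusted p = 0.031), but mostly in 1 pair of libraries, by 1.29 in A and B and 0.12 in C and D, and in C and D alone it was not called (adjusted p = 0.081). The call was also lost without mcd1-1 A (0.068), mcd1-1 B (0.076), WT A (0.076) or WT B (0.080). MTW1 had 16.4, 19.5, 19.3 and 19.3 CPM in mcd1-1 and 20.2, 20.8, 19.8 and 20.5 CPM in WT libraries, so that each mcd1-1 library lay slightly below each WT library (-0.13 ± 0.12, adjusted p = 0.43), and its model overlaps YAL034C-B. NSL1 (-0.12 ± 0.16) and NNF1 (0.16 ± 0.23) were not called, and both had opposite signs in the pairs. The log2 fold change of NSL1 was 0.23 in A and B and -0.45 in C and D, and that of NNF1 0.48 in A and B and -0.23 in C and D.

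DASH was the subgroup with the lowest median, and its subunits did not move together. DAD2 and DAD3 fell, and ASK1, DAD1, DAD4, DAM1 and DUO1 were not called. DAD2 (YKR083C, chromosome XI, 596421 to 596822) had 14.8, 13.7, 16.0 and 15.7 CPM in mcd1-1, against 33.2, 33.9, 19.96 and 22.4 CPM in WT libraries (-0.86 ± 0.20, adjusted p = 0.0074). All mcd1-1 libraries lay close together, below both WT pairs, which differed from each other, and the change was -1.24 in A and B and -0.39 in C and D. DAD3 (YBR233W-A, chromosome II, 684977 to 685261) had 12.9, 11.3, 10.6 and 12.0 CPM in mcd1-1, against 19.2, 22.7, 16.9 and 17.1 CPM in WT libraries (-0.69 ± 0.15, adjusted p = 0.0059, with -0.79 in A and B and -0.54 in C and D). Both falls depended on scaling, since under library size alone DAD2 was at -0.52 (adjusted p = 0.052) and DAD3 at -0.36 (0.093).

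DAD1 had the most negative fold change of the 34 genes but was not called, with 20.1, 18.0, 10.8 and 10.7 CPM in mcd1-1 and 43.2, 41.1, 12.95 and 13.2 CPM in WT libraries (-0.89 ± 0.44, adjusted p = 0.14). Within each pair mcd1-1 lay below WT, by -1.14 in A and B and -0.25 in C and D, and in the fit blocked on the letter DAD1 was called lower (adjusted p = 0.016). DAM1, the subunit through which Ipl1 controls the grip on the microtubule, had 51.7, 43.4, 32.1 and 31.7 CPM in mcd1-1 and 63.5, 60.2, 36.7 and 41.3 CPM in WT libraries (-0.34 ± 0.23, adjusted p = 0.26), and was lower in the blocked fit (adjusted p = 0.022). DUO1 (-0.31 ± 0.16) and DAD4 (-0.19 ± 0.41) were not called. DAD4, whose coding region of 219 bases is the shortest here and overlaps YDR320W-B, had 46.3, 39.2, 21.3 and 19.4 CPM in mcd1-1 and 52.7, 50.7, 21.6 and 19.4 CPM in WT libraries. The pairs of libraries differed far more than the genotypes did.

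ASK1 stood against the rest of the 7 DASH members, as the 1 gene among them with a positive fold change. It had 82.3, 94.9, 41.2 and 41.5 CPM in mcd1-1 and 44.8, 45.1, 31.5 and 32.4 CPM in WT libraries (0.76 ± 0.30, adjusted p = 0.068). The 2 mcd1-1 libraries C and D lay below the 2 WT libraries A and B, but within each pair mcd1-1 was higher, by 0.98 in A and B and 0.41 in C and D. ASK1 was called higher in the fit blocked on the letter (adjusted p = 0.0071) and without mcd1-1 C (0.027) or mcd1-1 D (0.025). Its model overlaps YKL053W. Per length, the level of ASK1 over that of DAD2 was 2.54, 3.17, 1.18 and 1.21 in the mcd1-1 libraries and 0.618, 0.609, 0.722 and 0.660 in the WT libraries.

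The passenger complex holds the Aurora B kinase Ipl1, its activator Sli15 (INCENP) and Bir1 (survivin), and all its members and SGO1 had positive fold changes in each pair of libraries. IPL1 (YPL209C, chromosome XVI, 156490 to 157593) had 18.5, 25.0, 15.8 and 14.4 CPM in mcd1-1, against 9.75, 9.95, 6.78 and 7.39 CPM in WT libraries (2.18-fold, 1.12 ± 0.22, adjusted p = 0.0038). The groups did not overlap, and the rise was 1.14 in A and B and 1.11 in C and D. SLI15 (YBR156C, chromosome II, 551104 to 553200) had 48.4, 58.8, 57.8 and 59.8 CPM in mcd1-1, against 19.7, 19.7, 33.1 and 36.3 CPM in WT libraries (2.06-fold, 1.04 ± 0.22, adjusted p = 0.0054). Levels of SLI15 were alike across the mcd1-1 libraries, whereas WT C and D lay well above WT A and B, so that the rise was 1.44 in A and B and 0.80 in C and D.

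BIR1 had 76.1, 93.9, 91.4 and 91.6 CPM in mcd1-1 and 39.4, 39.9, 70.8 and 80.7 CPM in WT libraries and was not called (0.61 ± 0.24, adjusted p = 0.071). Only WT D lay above mcd1-1 A, and BIR1 was called without WT D (adjusted p = 0.022) and in the fit blocked on the letter (0.016). SGO1 encodes shugoshin, which gathers at the pericentromere, helps to sense tension and in meiosis shields cohesin from separase. It had 40.7, 45.4, 32.0 and 31.0 CPM in mcd1-1 and 23.7, 27.9, 28.7 and 34.1 CPM in WT libraries (0.38 ± 0.17, adjusted p = 0.10), with a change of 0.74 in A and B and 0.03 in C and D.

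Among the checkpoint genes BUB1 rose and MAD1, MAD2, MAD3, BUB3 and MPS1 were not called. BUB1 (YGR188C, chromosome VII, 872044 to 875109), a kinase that binds Spc105 and also marks the nucleosomes to which shugoshin goes, had 44.4, 67.6, 43.1 and 37.8 CPM in mcd1-1, against 11.2, 12.6, 17.5 and 19.7 CPM in WT libraries. Its 3.16-fold rise was the largest among the 34 genes (1.66 ± 0.24, adjusted p = 0.0010). The groups were far apart, and the rise was 2.23 in A and B and 1.15 in C and D. BUB3, which binds Bub1, had 59.5, 67.8, 35.9 and 37.0 CPM in mcd1-1 and 52.6, 57.5, 37.5 and 41.7 CPM in WT libraries (0.08 ± 0.24, adjusted p = 0.81). The per-length ratio of BUB1 to BUB3 was 0.250, 0.334, 0.401 and 0.342 in the mcd1-1 libraries and 0.0713, 0.0732, 0.157 and 0.158 in the WT libraries.

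MPS1, the kinase at the top of the checkpoint, had 69.4, 90.4, 98.3 and 91.1 CPM in mcd1-1 and 42.6, 41.3, 71.9 and 76.3 CPM in WT libraries (0.59 ± 0.23, adjusted p = 0.067). Within each pair mcd1-1 was higher, by 0.93 in A and B and 0.39 in C and D, and MPS1 was called in the fit blocked on the letter (adjusted p = 0.0099) and without WT C (0.0499) or WT D (0.032). MAD3 (BubR1 in animals), part of the inhibitor that binds Cdc20, had 59.5, 66.4, 74.3 and 74.3 CPM in mcd1-1 and 56.0, 55.7, 52.8 and 57.1 CPM in WT libraries. Its groups did not overlap, but the difference was small (0.31 ± 0.11, adjusted p = 0.057), and it was called in the blocked fit (0.038) and without mcd1-1 A (0.021). MAD1, which anchors Mad2 at unattached kinetochores, was at 138 ± 26.6 CPM in mcd1-1 and 127 ± 25.3 CPM in WT (mean ± SD, n = 4 each, 0.12 ± 0.19), the highest group means in CPM, although NDC80 lay above it in mcd1-1 A and B. MAD2, which carries the signal to Cdc20, was at 63.6 ± 5.75 CPM in mcd1-1 and 61.5 ± 9.66 CPM in WT (0.05 ± 0.14). In C and D alone edgeR called both higher, MAD1 by 0.15 (adjusted p = 0.046) and MAD2 by 0.25 (0.0029). Neither was called in A and B, at 0.12 and -0.09. Of the 6 checkpoint genes 5 were called higher in C and D (83.3%), where 38.8% of all genes were. In A and B 2 were (33.3%), where 34.8% of all genes were.

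Summed over its genes, each subgroup other than DASH was higher in each mcd1-1 library than in any WT library. The passenger and shugoshin genes summed to 184 to 223 CPM in mcd1-1, against 92.6 to 159 CPM in WT libraries. The outer kinetochore summed to 403 to 602 CPM in mcd1-1 and 331 to 358 CPM in WT libraries, which themselves varied little. The inner kinetochore summed to 341 to 397 CPM in mcd1-1 and 242 to 318 CPM in WT libraries, and the checkpoint genes to 414 to 476 CPM in mcd1-1 and 339 to 405 CPM in WT libraries, so that both lay close to touching. The inner separation rests on MIF2, since the sums without it overlap between the genotypes. The checkpoint sums overlap without BUB1, and also without BUB3 or MAD2, neither of which was called. Of the 8 inner kinetochore genes, 4 had positive and 4 negative fold changes. DASH summed to 258, 249, 164 and 162 CPM in mcd1-1 libraries A to D and 301, 298, 169 and 178 CPM in WT libraries A to D. DASH was thus lower in mcd1-1 within each pair. Under library size alone, which raises all genes of mcd1-1 alike, the sums were 280.3, 303, 178 and 179 CPM in mcd1-1 and 268, 262, 150.2 and 160.4 CPM in WT libraries. The sign of the DASH sum thus changes with the scaling. It also depends on ASK1, since without this gene these sums are lower in mcd1-1 in A and B and slightly higher in C and D. The other subgroups kept their direction. In bulk RNA, fewer cells at a stage that expresses a gene and less RNA per cell cannot be told apart.

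**Figure D3:**
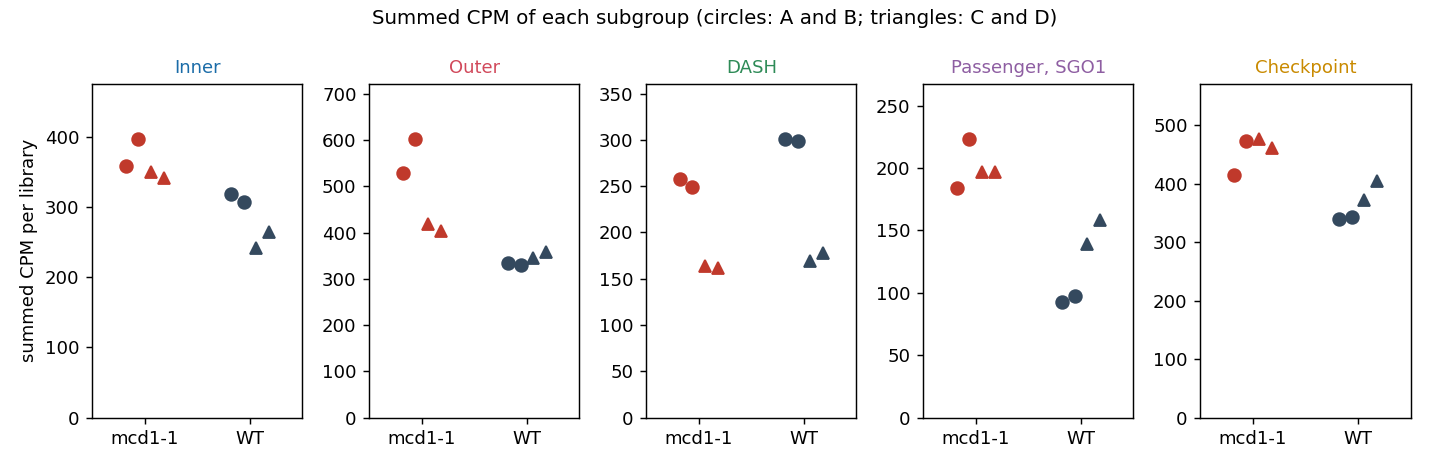
Summed CPM of the genes of each subgroup in each library (TMM-scaled), with mcd1-1 left of WT, circles for libraries A and B and triangles for C and D. The 4 mcd1-1 libraries lie above the 4 WT libraries in each panel but DASH, where circles and triangles separate in both genotypes. For the inner kinetochore the separation rests on MIF2, and for the checkpoint it is lost without BUB1, BUB3 or MAD2.

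Per length, the order of the levels at its ends was alike in the genotypes. DAD4 came first with 144 ± 60.6 CPM per kilobase in mcd1-1 and 165 ± 82.5 in WT (mean ± SD, n = 4 each), but its SD covered the next gene, MAD2, at 108 ± 9.73 in mcd1-1 and 104 ± 16.4 in WT. BUB1 came last with 15.7 ± 4.32 in mcd1-1 and 4.97 ± 1.31 in WT, next to IPL1 with 16.7 ± 4.24 in mcd1-1 and 7.67 ± 1.46 in WT. The ranges of mean ± SD of these neighbours overlapped in both genotypes. MIF2 stood at rank 10 of 34 in mcd1-1 and at rank 30 in WT. Within the Ndc80 complex SPC25 was highest in both genotypes, at 2.47 times the lowest, NUF2, in mcd1-1 and 2.40 times the lowest, SPC24, in WT. Within MIND NSL1 was 2.59 times MTW1 in mcd1-1 and 2.57 times in WT. Within the passenger complex, the ratio of BIR1 to IPL1 was 1.85 in mcd1-1 and 2.62 in WT.

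The fold changes of the members ran with the length of their coding regions, a feature that their choice did not use. Across the 34 genes, which share the 8 libraries and are not replicates, the log2 fold change correlated with coding length at a Spearman rho of 0.61, where rho was 0.12 over 5896 genes with a coding length. All 4 members under 500 bases (DAD1 to DAD4) had negative fold changes, with a median of -0.78. The 7 members of 2000 bases or more, among them NDC80, SLI15, SPC105 and BUB1, had positive ones, with a median of 0.61. Within A and B rho was 0.62 for the members and 0.18 for all genes, and within C and D 0.53 and 0.02. Length also moved with the pairs of libraries, since C and D over A and B correlated with coding length at 0.40 in mcd1-1 and 0.69 in WT over the members, and at 0.41 and 0.60 over all genes. The part of this pattern in the members' changes was not tested.

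**Figure D4:**
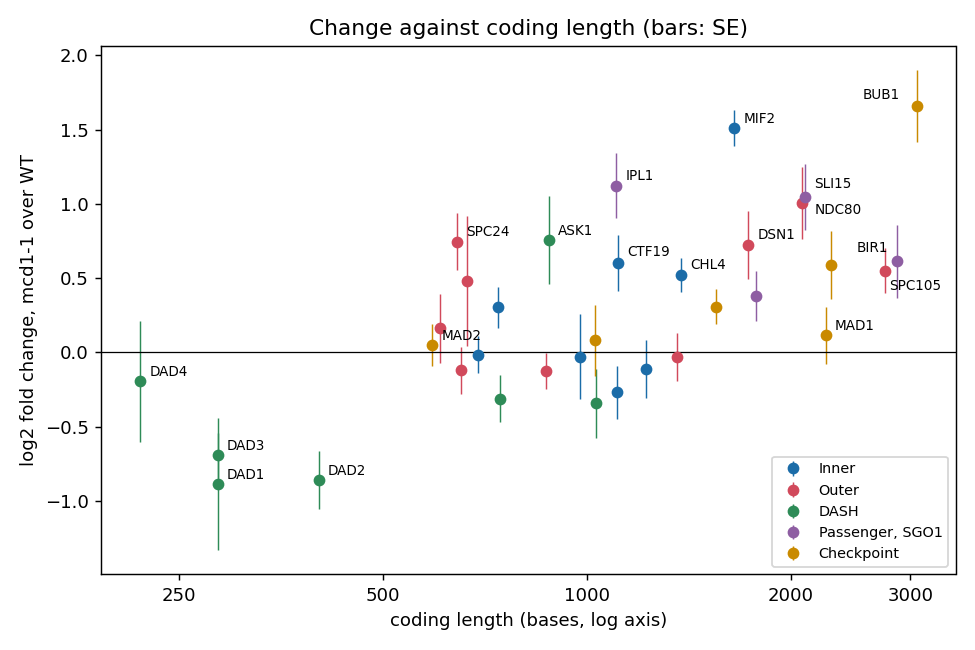
Log2 fold change of mcd1-1 over WT (SE bars) against coding length in bases (log axis), coloured by subgroup. The 4 shortest genes, all DAD genes of DASH, lie below 0, and the 7 genes of 2000 bases or more lie above 0.

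The size of the change differed between the pairs of libraries for 15 of the 34 genes (44.1%), tested as an interaction of genotype with pair in edgeR, where 36.7% of all genes did. In A and B 17 of the 34 members were higher and 6 lower (17.6%), where 34.8% and 32.9% of all genes were. In C and D 18 of the 34 were higher (52.9%) and 5 lower (14.7%), where 38.8% and 37.1% of all genes were. MIF2, CHL4, IML3, SPC24, SPC25, SPC105 and IPL1 were called higher in each pair with no called difference between pairs, and DAM1 and DAD3 were likewise lower. CTF19, NDC80, ASK1, SLI15, BIR1, BUB1 and MPS1 were called higher in each pair, and DAD1 and DAD2 lower, with a called difference, and each of these changed less in C and D. For BUB1, NDC80 and SLI15 the difference was -1.12, -0.79 and -0.69 on the log2 scale.

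**Figure D5:**
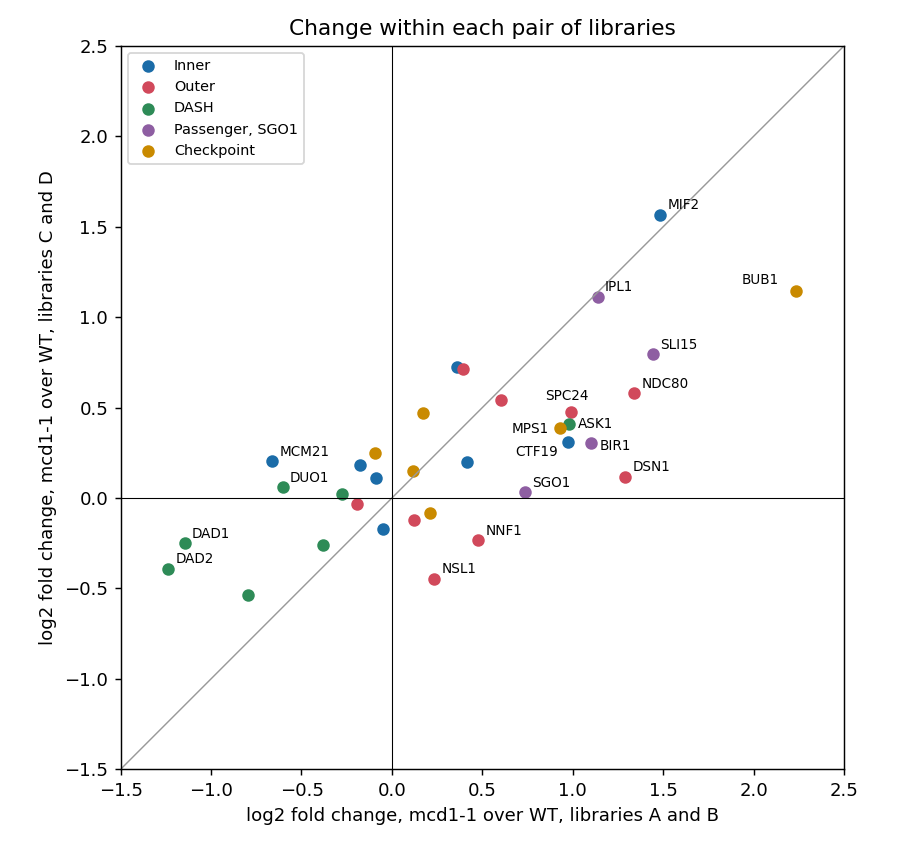
Log2 fold change of mcd1-1 over WT in libraries A and B (horizontal) and in C and D (vertical) for the 34 genes, with the diagonal where both are equal. MIF2 and IPL1 lie near the diagonal, and BUB1, DSN1 and NDC80 lie below it, with larger changes in A and B.

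Genes of the same pathway that are not among the 34 gave 6 higher, 3 lower and 19 not called of 28. The 21.4% higher was close to the 20.7% of all genes, and 10.7% were lower where 19.7% of all genes were. Around Cse4, its chaperone SCM3 rose (0.77 ± 0.19, adjusted p = 0.0096), as did PSH1, the ubiquitin ligase that removes misplaced Cse4 (1.02 ± 0.16, adjusted p = 0.0015). PSH1 had 116, 129, 90.03 and 89.8 CPM in mcd1-1, against 45.2, 48.3, 57.4 and 58.3 CPM in WT libraries, without overlap. CTF3, the CENP-I protein of the inner kinetochore, rose (0.97 ± 0.20, adjusted p = 0.0045), and so did NBL1, the borealin of the passenger complex (0.82 ± 0.21, adjusted p = 0.012). SLK19, of the kinetochore and the anaphase spindle, rose (0.71 ± 0.19, adjusted p = 0.014), and CDC20, the target of the checkpoint, rose (0.88 ± 0.20, adjusted p = 0.0072). CDC20 had 75.0, 77.0, 92.1 and 91.1 CPM in mcd1-1, against 36.4, 33.4, 57.5 and 55.0 CPM in WT libraries. BIM1, the EB1 protein at microtubule ends, fell (-0.64 ± 0.12, adjusted p = 0.0033), and CBF1, which binds centromere DNA and also methionine promoters, fell (-0.64 ± 0.20, adjusted p = 0.029). CBF1 was not called without mcd1-1 B, C or D or WT A or B (adjusted p = 0.067, 0.075, 0.074, 0.072 and 0.077), but was lower in the fit blocked on the letter (0.0026) and in each pair alone (0.00060 in A and B, 0.00011 in C and D). SPC19, a further DASH subunit, also fell (-0.65 ± 0.22, adjusted p = 0.037), and was not called without mcd1-1 B, C or D or WT A or B (0.10, 0.089, 0.072, 0.097 and 0.098). It too was lower in the fit blocked on the letter (0.016) and in each pair alone (0.0010 in A and B, 0.028 in C and D). The DASH subunits SPC34 (0.24 ± 0.19, adjusted p = 0.33) and HSK3 (-0.24 ± 0.13, adjusted p = 0.18) were not called. SPC34 was called higher in each pair alone (0.0497 in A and B, 0.016 in C and D), but not in the fit blocked on the letter (0.070). HSK3 was called lower in A and B alone (0.038). SPC19, SPC34 and HSK3 lie outside the rule for named genes, which took the 8 with the smallest p. They were named after their values were seen. The 3 falls were also not called under library size alone (adjusted p = 0.070 for BIM1, 0.25 for CBF1 and 0.26 for SPC19).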

How the data were processed

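Poly(A) RNA of 4 mcd1-1 and 4 WT libraries was sequenced, and the authors deposited 1 table of raw read counts per gene for all 8. Per the submitters' processing notes, reads were handled with featureCounts 1.6.0, STAR 2.5.3a, Trim Galore 0.4.3, bcl2fastq 2.9 and Picard on genome build R64. The sources used here do not say whether counting used the strand or how multiply matching reads were treated. All 34 genes were matched by symbol or systematic name. By blastn 2.17.0, 0 of the 34 had a copy with at least 90% identity over 100.0 bases. The table has 4 emptied lines, whose genes are not analysed here.

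Counts were tested as deposited with edgeR 4.0.16 in R 4.3.3 (filterByExpr, TMM, quasi-likelihood F test, Benjamini-Hochberg over 6558 genes, threshold 0.05), with genotype as the only term. Common biological coefficient of variation was 0.253. The fit was tested on simulated data. TMM factors were 1.09 to 1.21 in mcd1-1 and 0.88 to 0.90 in WT. Alternatives were RLE, upper-quartile and no TMM scaling, no filter or 10 CPM in 4 libraries, DESeq2 1.42.0, limma-voom 3.58.1, a robust fit, a block for the letter or the pair of libraries, each pair alone, and leaving out each library. The interaction of genotype with pair was added after seeing the data. Dixon's criterion was applied per gene and group.

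The labels give both genotypes the letters A to D. Deviations from the group means of same-lettered libraries correlated at 0.606, 0.452, 0.633 and 0.598 for A to D. The letter was a block in an alternative fit only, and the main fit had no term for it. Different letters of the same pair (A with B, C with D) correlated alike, at 0.490 to 0.653, and letters of different pairs at -0.643 to -0.448. Replicates differed beyond sampling noise, with a chi-square per degree of freedom of 11.9 to 101 within pairs and 315 to 541 across pairs, so all 8 were kept apart.

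The members and the lists were chosen with earlier results of these data known. Every member is accounted for. Of the other kinetochore and segregation genes those called were named, at most the 8 with the smallest p. The DASH subunits SPC19, SPC34 and HSK3 were named beyond this rule. Promoter stretches come from the RefSeq genome of build R64, whose gene coordinates equal those of the table for 5885 of 5914 matched models and for all 34 members. Pairs of genes whose levels were divided were chosen after seeing the values.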

Additional observations from a re-analysis of the deposited data

Results flagged for a closer look

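In 3 of 68 groups of 4 libraries, 1 library lay far from the other 3 by Dixon's criterion, which chance meets in about 1 in 20 groups. Each was mcd1-1 A, the lowest of its group, with a gap of 0.923 of the range for MTW1, 0.83 for SLI15 and 0.863 for BIR1, above the critical value for 4 libraries.

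The change between genotypes differed between the pairs of libraries for 15 of the 34 genes (interaction in edgeR, adjusted p under 0.05 over all genes). As the log2 fold change in C and D minus that in A and B, the difference was negative for 11 genes. These were DSN1 (-1.21, adjusted p = 0.00048), BUB1 (-1.12), BIR1 (-0.83), NDC80 (-0.79), NNF1 (-0.75), SGO1 (-0.74), NSL1 (-0.71), CTF19 (-0.70), SLI15 (-0.69), ASK1 (-0.61) and MPS1 (-0.58). For 4 genes, 3 of them of DASH, it was positive, with DAD1 at 0.86, MCM21 at 0.83, DAD2 at 0.81 and DUO1 at 0.63. All 4 had negative fold changes in A and B. In C and D those of DAD1 and DAD2 were nearer to 0, that of MCM21 was 0.21, against -0.66 in A and B, and that of DUO1 was 0.06, against -0.60 in A and B.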

How the results depend on the processing

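Over 20 alternatives, 7 of the 12 called members were called the same way in each, and 7 of the 22 others in none. The counts, with 10 members higher and 2 lower and 6 and 3 of the other kinetochore and segregation genes (the other list) as reported, and the medians moved as follows. Upper-quartile scaling left 1 of the other list lower and gave 14 members higher (1739 higher and 915 lower of all genes). Its medians were 0.34 checkpoint, 0.37 for all 34, 0.28 inner and -0.21 DASH, with all genes at 0.13. Under library size alone 17 members were higher and 0 lower by edgeR (2 lower at an unadjusted p under 0.05), with 14 and 0 of the other list (1 at that p), and medians of 0.58 for all 34, 0.48 inner, 0.82 outer, 1.17 passenger, 0.55 checkpoint and -0.0018 DASH, as the median of all genes moved to 0.33. Over all genes this gave 2460 higher and 550 lower, against 1359 and 1291 under TMM. A filter of 10 CPM gave a checkpoint median of 0.26, and DESeq2 called 5 of the other list lower (1559 of all genes). With the replicate letter as a block 4 members and 6 of the other list were lower (1978 of all genes). Beyond the 7 members named beside their results the block changed no call among the 34. With the pair of libraries as a block 16 members were higher and 4 lower, and 10 and 6 of the other list (2207 and 2241 of all genes). A and B alone gave 17 and 6 members, 10 and 9 of the other list and medians of 1.12 passenger and -0.60 DASH (2287 and 2164 of all genes). C and D alone gave 18 and 5 members, 12 and 6 of the other list, and medians of 0.12 outer, 0.55 passenger and 0.32 checkpoint (2549 and 2436 of all genes), and MCM21 reversed to 0.21. The causes were not tested.

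Leaving out each library gave 7 to 12 members higher, 2 lower each time, 6 to 7 of the other list higher and 1 to 5 lower (1 without mcd1-1 B, C or D or WT A or B, 5 without WT D). Medians ran from 0.22 to 0.32 for all 34, from -0.47 to -0.23 for DASH, from 0.69 to 0.94 for passenger and from 0.22 to 0.34 for checkpoint genes, the last without mcd1-1 A. They ran from 0.09 (without WT C) to 0.27 for the inner kinetochore, and were 0.22 without mcd1-1 A, 0.28 without WT C and 0.26 without WT D for the outer kinetochore, up to 0.56. Of all genes, these fits called 1163 (without WT B) to 1373 (without mcd1-1 D) higher. They called 859 (without mcd1-1 B) to 1249 (without WT D) lower. Each member had at least 179 reads in each library; depth was not varied.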
